A study of Mus musculus with 2 samples.

Results

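Retnla, Cd163, Folr2, Mrc1, Mgl2, Chil3 and Clec10a are 7 genes commonly read as markers of alternatively activated macrophages, and they were taken by symbol from the 32589 genes listed for both libraries. They were chosen with their levels in these libraries known, as markers that did not move in 1 direction, so the directions below are a description. The cells came from mouse tumours grown from the colon carcinoma line MC38 and were taken 19 days after inoculation. Live leukocytes were sorted by their surface marker CD45, and 5 biological replicates per group were pooled into 1 library of control animals (Ctrl) and 1 library of animals given BiDT. The labels do not say what BiDT stands for, and the title of the series speaks of an antibody to TIM3 fused to interferon. Both libraries are labelled batch 1. With 1 library a group there is no test and no replicate check, and every 95% interval below covers counting error only.

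Alternative activation is the state that interleukin 4 and interleukin 13 induce in macrophages through the receptor chain Il4ra and the transcription factor STAT6. Retnla and Chil3 encode secreted proteins, Mrc1 and Cd163 encode endocytic receptors for sugars and for haemoglobin complexes, Folr2 encodes a folate receptor, and Mgl2 and Clec10a encode C-type lectins that bind galactose-type sugars. Cd163, Folr2 and Mrc1 also mark macrophages that reside in healthy tissue, Mgl2 and Clec10a also mark a branch of dendritic cells, and Chil3 is also made by monocytes.

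Retnla and Chil3, both induced by interleukin 4 in textbook accounts, lay on opposite sides in the whole class, and the 250 bases before their annotated starts are shown for that reason. The windows are from RefSeq (GRCm38.p6), 5′ to 3′ on the gene's strand, with the motif matches named below in capitals. Such windows were found for 6 of the 7 genes, and Clec10a had none.
Retnla, chr16:48842359-48842608, plus strand: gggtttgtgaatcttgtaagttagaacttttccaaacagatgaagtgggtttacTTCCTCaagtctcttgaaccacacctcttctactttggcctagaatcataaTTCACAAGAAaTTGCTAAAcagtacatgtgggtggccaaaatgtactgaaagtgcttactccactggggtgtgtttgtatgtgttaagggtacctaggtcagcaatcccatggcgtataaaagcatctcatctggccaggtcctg
Chil3, chr3:106167565-106167814, minus strand: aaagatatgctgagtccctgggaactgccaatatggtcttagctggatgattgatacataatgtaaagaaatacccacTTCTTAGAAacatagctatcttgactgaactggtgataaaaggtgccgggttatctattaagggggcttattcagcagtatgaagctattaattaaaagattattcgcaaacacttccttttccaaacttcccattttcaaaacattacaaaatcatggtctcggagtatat
The Retnla window held 1 match to the STAT6-type motif, TTC and GAA spaced by 4 bases, from 145 to 136 bases before the start, followed by a C/EBP-type match (TTGCNNAA) from 134 to 127 bases before it. A PU.1-type match (GAGGAA, here on the other strand) lay from 196 to 191 bases before the start. The Chil3 window held no STAT6-type match and 1 match to the shorter STAT-type TTCNNNGAA, from 172 to 164 bases before the start. On both strands of all 32851 windows of this length, the STAT6-type motif occurred in 5.85%, TTCNNNGAA in 7.02%, TTGCNNAA in 9.56% and GAGGAA in 23.3%. The interferon-response type, GAAA and GAAA spaced by 2 bases, was in 0 of the 7 windows of these genes and in 2.98% of all windows. A match is a match of letters only, and no binding was measured.

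After filtering, 30549 Ctrl and 31615 BiDT cells remained. Of 27 clusters, 11 were macrophage or monocyte-like by their markers, with 21199 Ctrl and 16776 BiDT cells, and all 10 listed markers, such as Csf1r and Cd68, were present in at least 10% of them. The Ctrl cells of the class were deeper, with a median of 4342 UMIs against 2591.5, and 713 barcodes occurred in both libraries. The libraries filled the class from different clusters: cluster 2 (Fn1, C1qc, Mgl2) held 21.7% of Ctrl and 1.94% of BiDT cells of the class, and cluster 14 (C1q genes and cycling genes) 7.66% and 0.298%. Cluster 3 (Ms4a7, Ccl7, Irf7) held 0.264% and 24.9%, and cluster 15 (Ifit2, Slfn4) 0.028% and 9.90%. The 7 genes and the interferon genes had been left out of the clustering. The summed level of 10 interferon-induced genes went from 549 to 6684 CPM (the UMIs of a gene scaled to all UMIs of the cells summed), and summed T, NK and neutrophil marker levels in the class went from 214 to 346, 31.0 to 116 and 125 to 226 CPM, while dendritic markers went from 50.9 to 46.7 CPM. Their part in the levels below was not tested.

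Over the whole class, 4 of the 7 genes were at least 1.5-fold higher in BiDT, 2 were at least 1.5-fold lower and 1 was neither. Of all 14877 genes with at least 50 UMIs, 18.0% were that much higher and 10.3% that much lower. The median log2 ratio of the 7 was 0.76, against 0.08 for all genes, and TMM scaling subtracted 0.18 from each value. With that scaling 3 of the 7 were higher and 3 lower, since Clec10a (0.58) was then under 1.5-fold and Mrc1 (-0.63) past it. From the highest to the lowest ratio the order was Retnla, Cd163, Folr2, Clec10a, Mrc1, Chil3 and Mgl2, and the counting intervals of neighbours in that order did not overlap. The order cuts across the families: the 2 secreted proteins stand far apart, and so do the 2 lectins.

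Of the secreted proteins, Retnla went from 199 to 933 CPM, a log2 ratio of 2.23 (2.21 to 2.25). Chil3, a chitinase-like protein without chitinase activity, went from 956 to 414 CPM, a log2 ratio of -1.21 (-1.23 to -1.19). Both are among the most used single markers of alternative activation in mice, and here they differed in direction.

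Among the receptors, Cd163 went from 1.96 to 5.88 CPM (log2 1.59, 1.35 to 1.83), on 261 and 349 UMIs. Folr2 went from 10.4 to 22.1 CPM (log2 1.09, 0.98 to 1.20). Mrc1, the mannose receptor CD206, went from 481 to 351 CPM (log2 -0.45, -0.48 to -0.43), which is less than 1.5-fold. Of the 7 genes, Mrc1 had the smallest difference between the libraries.

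Of the lectins, Clec10a went from 37.8 to 63.8 CPM (log2 0.76, 0.69 to 0.82), and Mgl2 from 457 to 114 CPM, 3.99-fold lower (interval of the log2 ratio -2.03 to -1.96). The 2 genes are neighbours on chromosome 11, and their transcripts are 96.7% identical over 704 aligned columns, with a longest identical run of 183 bases. The last 300 bases, nearest to what a 3′ library reads, shared no run longer than 10 bases. No source used here says how the authors' counting divided reads between them. Their ratios lay on opposite sides of 0.

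**Figure D1:**
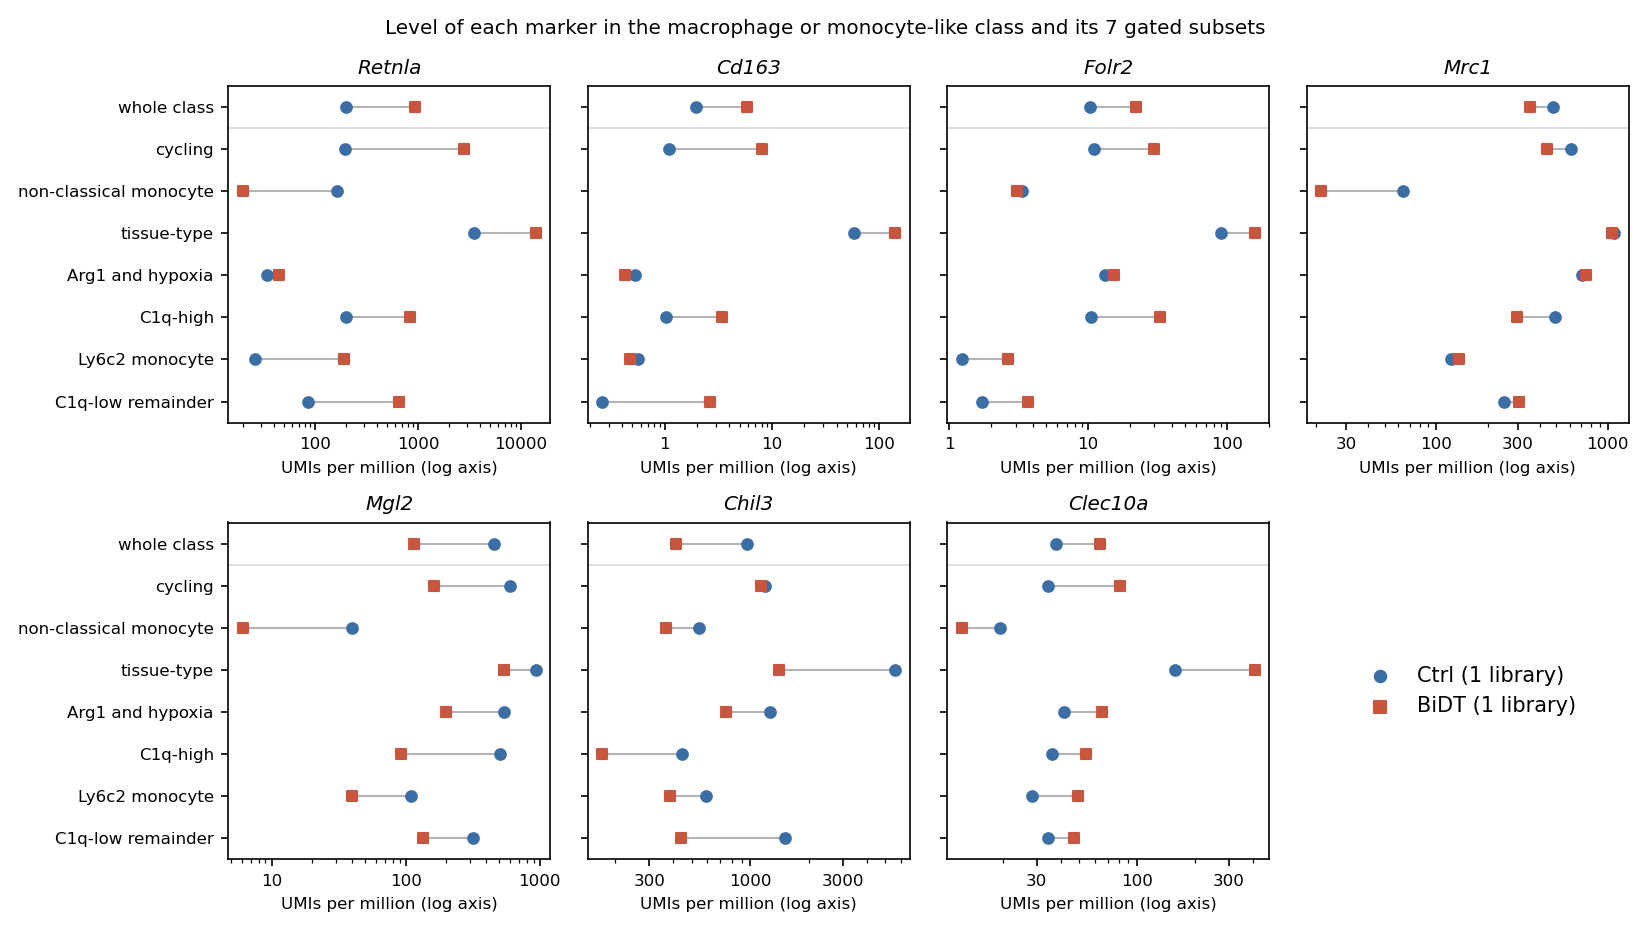
Level of each gene (CPM, log axis) in the whole class and in 7 gated subsets, with circles for the Ctrl library and squares for the BiDT library. Mgl2 lies to the left in BiDT in every row, with 47 and 4 UMIs in the non-classical monocyte gate, Retnla to the right in 6 of the 7 subsets, and Cd163 has no points for the non-classical monocyte gate, where it had 0 UMIs in both libraries.

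The class was then divided by per-cell counts of marker genes in cells thinned to 1000 UMIs, in a fixed order, with none of the 7 genes among the markers. The gates are ranges and not cell types. A gate for cycling genes (such as Mki67) took 1992 Ctrl and 492 BiDT cells. A non-classical monocyte gate (Ace, Adgre4 and others) took 321 and 200, and a tissue-type gate (Ear2, Lyve1, Timd4 and others) took 313 and 269. An Arg1 and hypoxia gate took 3194 and 2172, a C1q-high gate 8018 and 6943, a Ly6c2 monocyte gate 4103 and 4254, and 3258 and 2446 cells remained as C1q-low. Many cells lay exactly at a threshold, among them 185 of the 313 Ctrl and 137 of the 269 BiDT cells of the tissue-type gate, whose threshold is 2 UMIs. Different clusters filled some gates: cluster 14 held 69.0% of the cycling Ctrl cells and cluster 0 held 23.8% of the cycling BiDT cells, and C1q-high cells came mainly from cluster 2 in Ctrl (35.4%) and cluster 3 in BiDT (43.4%). Tissue-type cells came from clusters 2 (42.2%) and 17 (33.2%) in Ctrl and from cluster 17 (77.0%) in BiDT, and Ly6c2 monocytes from cluster 1 (47.4%) in Ctrl and clusters 1 (29.3%) and 15 (26.5%) in BiDT. The cycling share of the class was 9.40% in Ctrl and 2.93% in BiDT, and the Ly6c2 monocyte share 19.4% and 25.4%.

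Mgl2 was at least 1.5-fold lower in BiDT in 6 gates with levels above those of T cells, which had 26.7 CPM in Ctrl and 9.22 CPM in BiDT. It went from 505 to 92.2 CPM in C1q-high cells, from 600 to 163 CPM in cycling cells, from 547 to 200 CPM in Arg1 and hypoxia cells and from 934 to 542 CPM in tissue-type cells. In the monocyte gate it went from 109 to 39.8 CPM, and in the C1q-low remainder from 317 to 135 CPM. The log2 ratios ran from -0.79 in the tissue-type gate to -2.45 in C1q-high cells. In non-classical monocytes Mgl2 was 39.5 and 6.11 CPM, on 47 and 4 UMIs. Neutrophils had 42.9 CPM in Ctrl and 19.3 CPM in BiDT. The gate was near the neutrophil level in Ctrl and below the T-cell and neutrophil levels in BiDT, so no difference is read from it. Cluster 7, which held 93.1% and 73.5% of the cells of that gate, had 26.2 and 43.2 CPM.

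Retnla was highest by far in the tissue-type gate, where it went from 3518 to 13938 CPM (log2 1.99, 1.95 to 2.02). It went from 194 to 2774 CPM in cycling cells, from 198 to 829 CPM in C1q-high cells, from 25.8 to 189 CPM in Ly6c2 monocytes and from 85.6 to 660 CPM in the C1q-low remainder. In the Arg1 and hypoxia gate it was 34.3 and 44.7 CPM, a log2 ratio of 0.38 (0.21 to 0.55), and hence under 1.5-fold. In non-classical monocytes it went from 165 to 19.9 CPM, but 183 of the 196 Ctrl UMIs there came from 1 cell. Without cluster 17, described below, the log2 ratios were 0.64 in place of 2.06 in C1q-high cells, 1.54 in place of 2.87 in Ly6c2 monocytes, 0.63 in place of 2.95 in the C1q-low remainder and 1.28 in place of 3.84 in cycling cells. That cluster gave 89.9%, 82.7%, 89.6% and 97.5% of the BiDT Retnla UMIs of these gates. T and NK cells, which should lack Retnla, had log2 ratios of 2.85 (9.37 to 67.4 CPM) and 2.11 (7.91 to 34.1 CPM). The ratios without cluster 17 were not separated from that background.

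Chil3 was at least 1.5-fold lower in 5 gates. It went from 5607 to 1409 CPM in tissue-type cells, from 1516 to 438 CPM in the C1q-low remainder and from 445 to 172 CPM in C1q-high cells. The differences were smaller in Arg1 and hypoxia cells, 1260 to 745 CPM, and in Ly6c2 monocytes, 588 to 385 CPM, and in non-classical monocytes it went from 539 to 367 CPM, under 1.5-fold. These sums rest on few cells: in the cycling gate, where the levels were 1189 and 1141 CPM, 1628 of the 2277 BiDT UMIs were in 1 cell, and without the 3 cells with most Chil3 UMIs in each library the log2 ratio there was -2.25 in place of -0.06. In the tissue-type gate the 3 highest cells held 32.1% of the Ctrl and 63.7% of the BiDT UMIs, and the log2 ratio without them was -2.89 in place of -1.99. Without cluster 17, described below, it was -0.25, which is under 1.5-fold. In Ly6c2 monocytes the ratio of -0.61 was under 1.5-fold under 3 settings, from -0.54 to -0.50.

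Mrc1 differed in direction between gates. It was lower in C1q-high cells, at 491 and 298 CPM (log2 -0.72, -0.76 to -0.68, but -0.52 and under 1.5-fold in thinned cells), and in cycling cells, at 608 and 442 CPM, the latter under 1.5-fold. It differed by less than 1.5-fold in tissue-type cells (1086 and 1056 CPM), in Arg1 and hypoxia cells (712 and 747 CPM), in Ly6c2 monocytes (122 and 136 CPM) and in the C1q-low remainder (247 and 305 CPM). Its sign in the Arg1 and hypoxia gate turned with TMM scaling (log2 -0.10), and that in the C1q-low remainder with Ly6c2 and Plac8 left out of the monocyte gate (-0.04). In non-classical monocytes it went from 63.8 to 21.4 CPM on 76 and 14 UMIs. Over the gates Mrc1 thus ranged from lower to similar levels in BiDT.

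Clec10a was at least 1.5-fold higher in 5 of the 6 gates with at least 50 UMIs, up to a log2 ratio of 1.37 in the tissue-type gate (158 to 407 CPM), and in the C1q-low remainder its ratio was 0.46, under 1.5-fold. Without cluster 17 the ratio was 0.01 in place of 0.59 in C1q-high cells and 0.41 in place of 1.25 in cycling cells, both under 1.5-fold. In thinned cells it was 0.50 in C1q-high cells, 0.46 in Arg1 and hypoxia cells and 0.04 in the C1q-low remainder. Folr2 was also highest in the tissue-type gate, 90.9 and 158 CPM, and its log2 ratio was largest in C1q-high cells, 1.66, at 10.4 and 32.9 CPM. Cd163 reached 50 UMIs only in the tissue-type gate, where it went from 58.3 to 140 CPM, and in the C1q-high gate, where it had 53 and 82 UMIs and a log2 ratio of 1.72 (1.21 to 2.25). Cluster 17 gave 95.6% and 100% of its UMIs in the tissue-type gate, and 35.8% and 63.4% in the C1q-high gate. The 3 highest cells held 33.3% and 33.8% of those of the tissue-type gate. Folr2 and Cd163 are genes of resident macrophages, and the tissue-type gate was defined by other genes of that kind.

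Read against all genes, 4 of 7 genes were at least 1.5-fold higher and 2 lower in the tissue-type gate, where 12.6% and 11.2% of all genes were. In C1q-high cells 4 of 7 were higher and 3 lower (18.4% and 11.4% of all genes), and in cycling cells 3 of 6 were higher and 1 lower (16.3% and 17.0%). In Ly6c2 monocytes 3 of 6 were higher and 2 lower (12.3% and 5.83%), and in the C1q-low remainder 2 of 6 were higher and 2 lower (12.9% and 8.12%). In Arg1 and hypoxia cells 1 of 6 was higher and 2 were lower (13.6% and 6.85%), and in non-classical monocytes 0 of 4 were higher and 3 lower (10.6% and 8.44%), of which Mgl2 was at background and Retnla came mostly from 1 cell. By these calls both directions were present in 6 of the 7 gates, in 2 of them with limits. In Arg1 and hypoxia cells the only higher gene was Clec10a, under 1.5-fold in thinned cells (0.46). In the C1q-low remainder the higher genes were Retnla, with 89.6% of its BiDT UMIs from cluster 17, and Folr2, on 26 and 25 UMIs. With the BiDT levels of each gate weighted by the Ctrl make-up of gates, the log2 ratios were 2.51 for Retnla, 1.58 for Cd163, 1.21 for Folr2, 0.80 for Clec10a, -0.28 for Mrc1, -0.91 for Chil3 and -1.82 for Mgl2, close to the ratios over the whole class.

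A small cluster carried most of the Retnla. Cluster 17 was picked as the cluster of the class with the highest Retnla level in both libraries. Its high Retnla level, and in part its share of Retnla UMIs, follow from that choice. Cluster 17, led by Retnla, Ear2, Lyz1, Fcrls and Pltp although Retnla had not entered the clustering, held 301 Ctrl and 681 BiDT cells, or 1.42% (1.26% to 1.59%) and 4.06% (3.77% to 4.37%) of the class. All 10 macrophage or monocyte markers were present in at least 10% of its cells in both libraries, with 1 of 10 dendritic markers, and summed dendritic markers were 135 and 154 CPM. It held 77.9% of the Retnla UMIs of the class in Ctrl and 93.5% in BiDT, and 70.1% and 84.5% of those of Cd163. For Folr2 the shares were 21.3% and 40.4%, for Clec10a 12.3% and 36.8%, for Mrc1 4.10% and 16.6% and for Mgl2 1.99% and 23.7%, while for Chil3 they were 0.129% and 0.526%. Cells of the cluster were in several gates, 34.6% of the Ctrl and 30.4% of the BiDT cells in the tissue-type gate and 37.2% and 41.3% in the C1q-high gate. Ear2, a leading gene of the cluster, is also a gene of the tissue-type gate. Cluster 17 held 80.2% and 97.5% of the Retnla UMIs of the cycling gate. At the finer Leiden resolution of 2, a cluster led by Retnla, Ear2 and Lyz1 had 200 Ctrl and 468 BiDT cells. Another, led by Gas6, Ccl8 and Cbr2 and with Folr2 and Lyve1 among its leading genes, had 100 and 213 cells. Their overlap with cluster 17 was not computed, so cluster 17 may hold more than 1 kind of cell.

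Inside cluster 17 the libraries were closer to each other. Retnla went from 9395 to 14609 CPM, a log2 ratio of 0.64 (0.61 to 0.66), Cd163 from 83.1 to 83.2 CPM (0.00, -0.27 to 0.28) and Folr2 from 134 to 150 CPM (0.16, -0.05 to 0.37). Mrc1 was 1196 and 977 CPM (-0.29), Mgl2 551 and 454 CPM (-0.28), Clec10a 281 and 393 CPM (0.49) and Chil3 74.9 and 36.4 CPM (-1.04). By the 1.5-fold rule 1 of 7 was higher and 1 lower, where 8.08% and 6.18% of all genes were. Mgl2, which was 3.99-fold lower over the class, differed by less than 1.5-fold there.

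In the rest of the class Retnla was 44.6 and 64.3 CPM (0.53, 0.47 to 0.59), under 1.5-fold, and Cd163 0.594 and 0.968 CPM (0.70, 0.18 to 1.22). The Cd163 ratio rests on 78 and 54 UMIs, and 1 BiDT cell held 11 of the 54. Folr2 had a log2 ratio of 0.76, Clec10a 33.7 and 42.9 CPM (0.35), Mrc1 469 and 312 CPM (-0.59), Chil3 971 and 438 CPM (-1.15) and Mgl2 456 and 92.9 CPM (-2.29, -2.33 to -2.25). There 2 of 7 were higher, 1 of them Cd163 on these few UMIs, and 3 lower, beside 18.2% and 11.3% of all genes. Taking Ctrl levels in both parts and changing only the share of class UMIs that cluster 17 held, from 1.65% to 5.97%, gave 603 CPM for Retnla and 5.52 CPM for Cd163, against the 933 and 5.88 CPM found, and log2 ratios of 0.61 for Folr2, 0.36 for Clec10a, 0.09 for Mrc1, 0.01 for Mgl2 and -0.06 for Chil3. The change of share alone thus gave a higher level of Retnla and Cd163 and left that of Mgl2 nearly as it was. In the tissue-type gate, 94.4% and 99.8% of its Retnla UMIs were from cluster 17, and without that cluster its Retnla log2 ratio was -1.25 in place of 1.99. That ratio without the cluster rests on the few BiDT UMIs that remained.

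**Figure D2:**
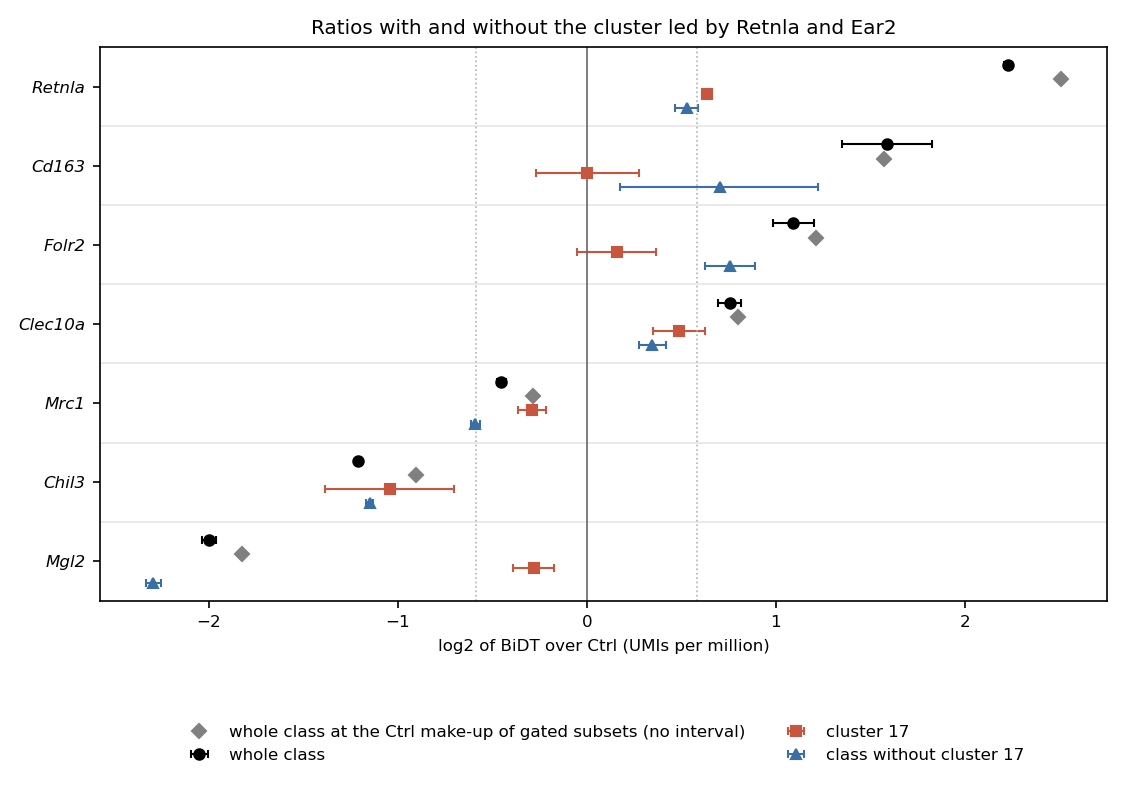
Log2 ratio of BiDT over Ctrl for each gene in the whole class, in the whole class at the Ctrl make-up of gates, inside cluster 17 and in the class without it, with 95% counting intervals where drawn and dotted lines at 1.5-fold. Retnla is 2.23 over the class but 0.64 inside cluster 17 and 0.53 outside it, whereas Mgl2 is -0.28 inside the cluster and -2.29 outside it.

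The 7 clusters with at least 200 cells in each library, numbers 0, 1, 2, 4, 7, 11 and 17, allow a comparison within clusters. They held 91.6% of the Ctrl and 64.7% of the BiDT cells of the class. Pooled over them, Chil3 went from 937 to 544 CPM (-0.78) and Mgl2 from 433 to 158 CPM (-1.45). With BiDT levels weighted by the Ctrl shares of these clusters, Chil3 came to 1051 CPM (log2 0.17) and Mgl2 to 273 CPM (-0.66). So weighted, Mrc1 was 466 and 504 CPM (0.11), Retnla 228 and 360 CPM (0.66), Cd163 2.19 and 3.60 CPM (0.71), Folr2 10.6 and 19.1 CPM (0.85) and Clec10a 39.5 and 69.4 CPM (0.81). With this weighting the lower level of Chil3 was not present, and the Mgl2 ratio was closer to 0 with the same sign. Cluster 2, with the most Ctrl UMIs of the 7, has the largest weight. Its BiDT levels of 1795 CPM of Chil3 and 528 CPM of Mgl2 rest on 325 cells. Weighted instead by the Ctrl make-up of gates, Chil3 stayed lower, at -0.91. These values were not recomputed without the cells highest in Chil3. The clusters were made from these same cells, and whether cells change cluster or are replaced cannot be told apart.

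By single cluster, Chil3 was higher in BiDT in cluster 4 (Arg1, Mmp12), at 379 and 644 CPM, and in cluster 2, at 1274 and 1795 CPM, the latter under 1.5-fold. It was lower in the hypoxic cluster 11, at 2781 and 1324 CPM, and nearly equal in the monocyte-type cluster 1, at 413 and 416 CPM. Mgl2 ranged from a log2 ratio of -2.31 in cluster 11 (480 and 96.9 CPM) to 0.72 in cluster 7 (Ace, Adgre4), at 26.2 and 43.2 CPM. The Ctrl level of cluster 7 was near that of T cells (26.7 CPM). In cluster 2, where Mgl2 is a leading gene, it was 792 and 528 CPM, and in cluster 4 it was 240 and 212 CPM. Cluster 3, found mostly in BiDT, had 60.4 CPM of Mgl2 there. Mrc1 was higher in cluster 4 (513 and 816 CPM) and cluster 7 (93.2 and 175 CPM) and lower in cluster 11 (478 and 185 CPM).

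**Figure D3:**
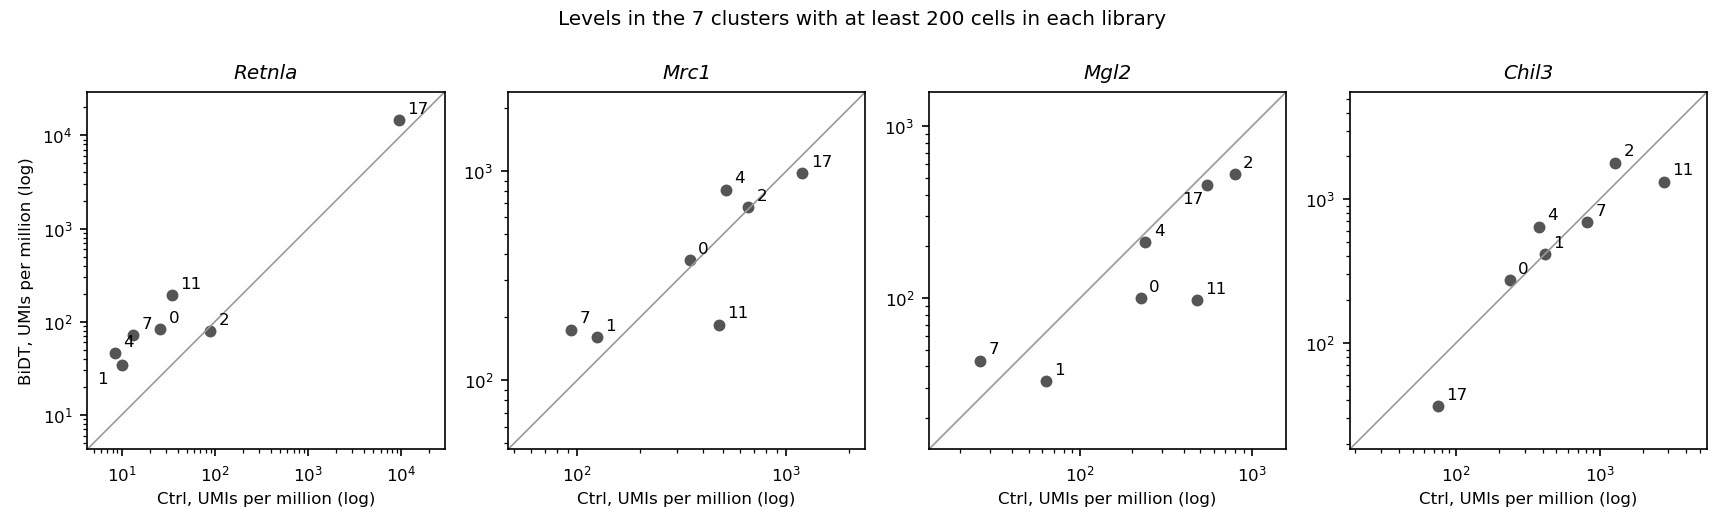
Levels of 4 genes in Ctrl (horizontal) and BiDT (vertical), both in CPM on log axes, in the 7 clusters with at least 200 cells in each library, labelled by cluster number. Points on the line are equal in both libraries; cluster 17 stands alone at the top for Retnla (9395 and 14609 CPM), and cluster 11 lies below the line for Mrc1, Mgl2 and Chil3.

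Levels in cells that should lack these genes give the background. In T cells Retnla went from 9.37 to 67.4 CPM, and in fibroblast or tumour-like cells from 5.37 to 104 CPM. Of the 1130 BiDT UMIs of the latter, 945 were in cluster 18, at 243 CPM, while clusters 16 and 20 had 23.5 and 31.4 CPM in BiDT. NK cells had 7.91 and 34.1 CPM and neutrophils 16.5 and 54.6 CPM. The 64.3 CPM of the BiDT class outside cluster 17 thus lies within the range of these other classes in that library, and the 44.6 CPM in Ctrl lies above theirs. Within the class, cluster 11 had 34.6 and 192 CPM. The BiDT levels of the Arg1 and hypoxia gate (44.7 CPM) and the non-classical gate (19.9 CPM) were below that of T cells. In cells thinned to 1000 UMIs, Retnla was detected in 2.73% of Ctrl and 7.03% of BiDT cells of the class (6.90% and 13.4% before thinning) and in 0.868% and 3.61% of T cells, whose median depths were 2894.5 and 2493 UMIs. Inside cluster 17 it was detected in 65.1% and 70.3% of thinned cells. Mgl2 in T cells went the other way, from 26.7 to 9.22 CPM, and Chil3 from 45.1 to 16.4 CPM, each at most 8.05% of the level in the class.

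Dendritic cells share the lectins. Mgl2 was 985 and 503 CPM in dendritic-like cells, a log2 ratio of -0.97 (-1.04 to -0.90), and Clec10a 194 and 268 CPM (0.47, 0.36 to 0.58). The Clec10a difference was under 1.5-fold, and in dendritic cluster 19 Clec10a was 80.3 and 58.1 CPM. The dendritic-like class was smaller in BiDT, with 958 cells against 2510. The macrophage or monocyte-like class held 80.1% and 75.9% of all Mgl2 UMIs and 62.5% and 75.4% of all Clec10a UMIs, and at least 87.9% of the UMIs of each of the other 5 genes.

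The UMIs of Retnla, Chil3 and the genes detected in few cells were concentrated in few cells. In thinned cells, the 1% of cells of the class with most Retnla held 88.2% of its UMIs in Ctrl and 65.4% in BiDT. For Chil3 these shares were 44.4% and 41.3%, for Mrc1 15.1% and 21.5% and for Mgl2 16.3% and 34.7%. For Clec10a they were 40.3% and 43.3%, for Folr2 100% and 86.9% and for Cd163 100% in both libraries. The measure also depends on how many cells detect a gene, which for Folr2 was 0.660% and 1.20% of thinned cells. Cells with at least 5 Retnla UMIs of 1000 numbered 161 in Ctrl and 397 in BiDT, and 80.7% and 93.5% of them were in cluster 17. For Chil3 there were 597 and 238 such cells, spread over clusters, with 35.8% of the Ctrl cells in cluster 2 and 24.4% of the BiDT cells in cluster 4. Without thinning, 1 Ctrl cell held 3077 Chil3 UMIs. A cell with 3 or more of the 7 genes detected made up 2.32% of Ctrl and 1.77% of BiDT cells, and in the tissue-type gate 20.1% and 25.3%.

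The genes did not mark the same cells to the same degree. Co-detection was set against the number expected if 2 genes were detected independently, for pairs with at least 5 cells expected. Retnla and Mrc1 were found together 1.84 times as often as independence gives in Ctrl (243 cells) and 1.86 times in BiDT (374 cells). For Retnla and Clec10a the ratios were 2.64 and 2.86, and Cd163 and Mrc1 were together in 21 Ctrl cells, with 6.18 expected, and in 25 BiDT cells, with 6.49 expected. Mgl2 and Clec10a had ratios of 1.62 in Ctrl and 3.26 in BiDT, Mrc1 and Mgl2 1.61 and 2.21, and Retnla and Mgl2 1.31 and 2.24. Of the cells with Mgl2, 5.41% in Ctrl and 14.3% in BiDT also had Clec10a, while 36.8% and 37.7% also had Mrc1. Outside cluster 17, Mgl2 and Clec10a were together in 191 Ctrl cells, with 117 expected, and in 85 BiDT cells, with 28.3 expected. The ratios there were 1.19 and 1.41 for Retnla and Clec10a, 1.42 and 1.28 for Retnla and Mrc1, and 1.31 and 1.21 for Retnla and Mgl2. For Mrc1 and Mgl2 they were 1.63 and 2.11. Cd163 and Mrc1 were together there in only 3 Ctrl and 6 BiDT cells, with 1.56 and 2.04 expected.

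Chil3 stood apart. Its ratio was 0.60 and 0.35 with Folr2, 0.74 and 0.66 with Clec10a, 0.83 and 0.76 with Mgl2, 1.07 and 0.69 with Retnla and 0.98 and 1.04 with Mrc1. Without thinning, when deep cells detect every gene more often, its ratios with these 5 genes lay from 1.07 to 1.19 in Ctrl and from 0.79 to 1.08 in BiDT. In thinned cells outside cluster 17, Chil3 with Retnla had ratios of 1.43 and 0.95, and those with Folr2, Mgl2 and Clec10a stayed below 1. In the Arg1 and hypoxia gate its ratios were 2.13 and 1.30 with Retnla, 1.17 and 1.22 with Mrc1 and 1.25 and 0.95 with Mgl2. In thinned cells of the whole class, 10 of the 14 pairs measured in Ctrl and 12 of the 16 in BiDT were above 1. Inside cluster 17 the ratios of Retnla with the other genes were between 0.85 and 1.30, closer to 1 than most of its ratios over the class. By gate, Mrc1 and Mgl2 were together most often relative to expectation in Ly6c2 monocytes, with ratios of 2.18 and 3.67.

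**Figure D4:**
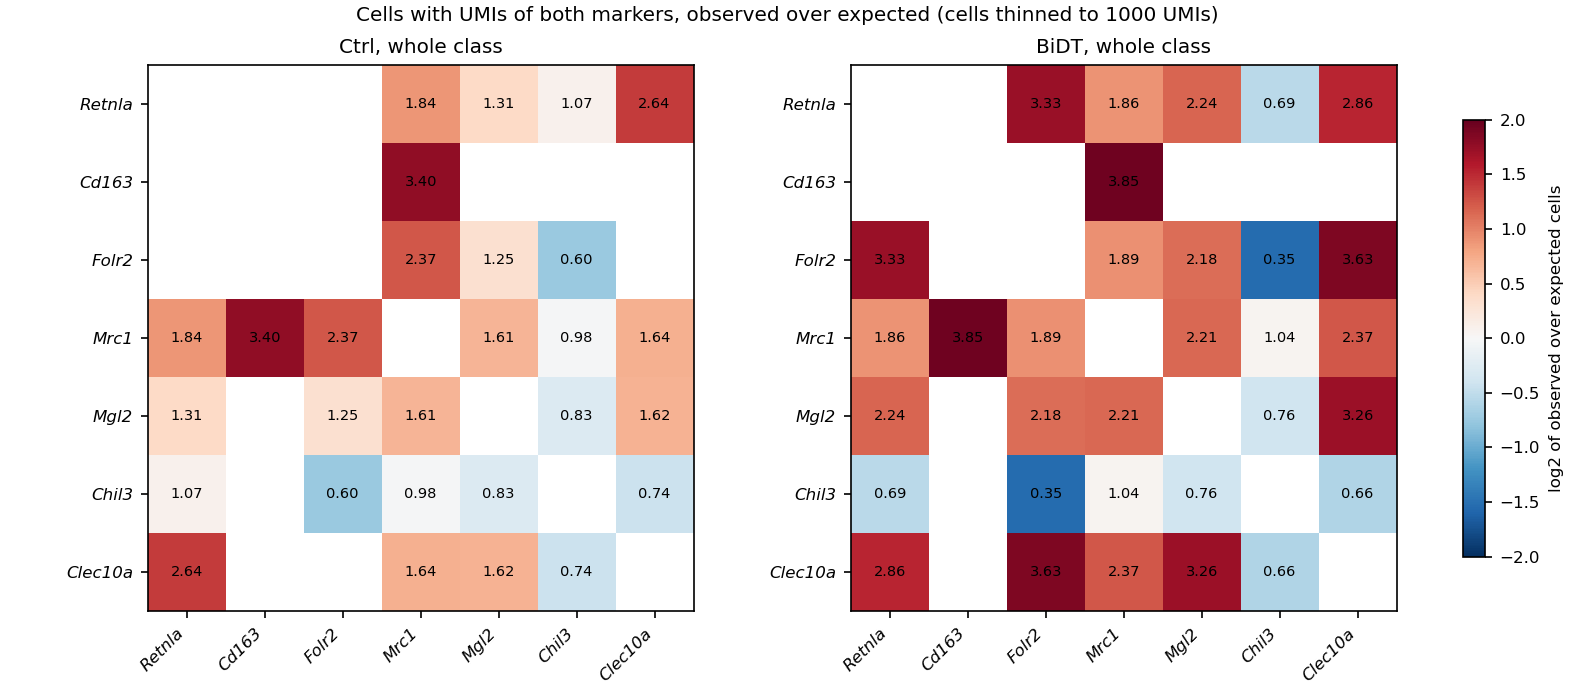
Number of cells with UMIs of both genes over the number expected from the single shares, in the whole class thinned to 1000 UMIs, for Ctrl (left) and BiDT (right), with colour on a log2 scale and blanks where fewer than 5 cells were expected. Pairs with Chil3 lie between 0.35 and 1.07, and pairs of the other genes are above 1, from 1.25 for Folr2 and Mgl2 in Ctrl to 3.85 for Cd163 and Mrc1 in BiDT.

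The genes of the pathway that the markers are named for lay on both sides. Of 30 measured genes of the interleukin 4 and 13 list, 4 were at least 1.5-fold higher in BiDT over the class and 6 lower, beside the same 18.0% and 10.3% of all genes, and their median log2 ratio was 0.03. The receptor chains Il4ra (186 and 213 CPM, log2 0.19) and Il13ra1 (0.15) and the factors Stat6 (0.20), Klf4 (-0.02) and Irf4 (-0.34) were each under 1.5-fold. Pparg, a nuclear receptor that cooperates with STAT6, was 4.88 and 9.74 CPM (1.00). Genes more than 2-fold higher were Socs1, a feedback inhibitor of cytokine signalling that interferons also induce (53.6 and 145 CPM, 1.44), and the scavenger receptor Cd36 (57.0 and 137 CPM, 1.27).

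Lower genes of that list were the chemokines Ccl17 (227 and 57.7 CPM, -1.98) and Ccl22 (14.7 and 5.38 CPM, -1.45), the lipoxygenase Alox15 (1.01 and 0.320 CPM, -1.66), the adhesion molecule Cdh1 (156 and 68.3 CPM, -1.19) and the ribonuclease Rnase2a (19.4 and 1.35 CPM, -3.85). Dendritic-like cells held far more Ccl17, at 2499 and 1463 CPM, and Ccl22, at 1341 and 1003 CPM, and the part of their RNA in the class values was not tested.

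The other lists had positive medians, to be read beside a median of 0.08 and the shares of 18.0% higher and 10.3% lower among all genes. Of 22 residency and scavenging genes, 6 of which also define the tissue-type gate, 8 were at least 1.5-fold higher and 0 lower, with a median log2 ratio of 0.51, and Maf, a transcription factor of resident macrophages, went from 103 to 277 CPM (1.43). The efferocytosis receptor Timd4 (1.42), the protease Lgmn (1.15) and the lectin Cd209d (1.13) were also more than 2-fold higher. Dendritic-like cells held far more Timd4 (51.5 and 56.6 CPM) and Cd209d (18.6 and 18.9 CPM) than the class (0.435 and 1.16 CPM, 0.936 and 2.06 CPM), and their part in these ratios was not tested. Of 18 interleukin 10 and glucocorticoid genes 7 were higher and 1 lower (median 0.36): Tsc22d3, a glucocorticoid-induced gene, went from 94.7 to 195 CPM (1.04), the interleukin 1 receptor antagonist Il1rn from 745 to 1580 CPM (1.08) and the scavenger receptor Marco from 0.502 to 1.18 CPM (1.23). The receptor Il10ra had a log2 ratio of 0.85 and the glucocorticoid receptor Nr3c1 of 0.31.

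Of 22 classical activation genes, the programme usually set against alternative activation, 10 were higher and 1 lower (median 0.49), again beside 18.0% and 10.3% of all genes. Slamf7 (2.07), Cxcl10 (1.61), Cd40 (1.30), Fcgr1 (1.28), Irf1 (1.25), Acod1 (1.13) and Nos2 (1.12) were more than 2-fold higher, and Cxcl9 more than 2-fold lower (-1.24). Some of these, such as Cxcl10 and Irf1, are interferon-induced genes.

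Over the 14 points given by 7 gates in 2 libraries, which share libraries and depth, likeness differed between pairs of the markers. Pearson's r of log2 (CPM + 10) was 0.91 for Cd163 with Folr2, 0.91 for Cd163 with Clec10a, 0.91 for Folr2 with Clec10a and 0.91 for Mrc1 with Mgl2, but 0.39 for Retnla with Mgl2 and 0.35 for Retnla with Chil3. In the tissue-type gate Cd163 had 58.3 and 140 CPM, Folr2 90.9 and 158 CPM and Clec10a 158 and 407 CPM. In the other gates they reached at most 8.02, 32.9 and 81.2 CPM. Their values of r thus depend largely on that gate, and r without it was not computed. Among 4717 genes compared, the one most like Retnla was Rras2 (0.94), followed by Cd226 and Lyz1. The gene most like Cd163 was C6 (0.99), followed by Cd209g and Kdm4a, and that most like Folr2 was Gas6 (0.98), followed by Serpinb6a and Ephx1. Ndfip1 (0.96), Cmtm3 and Epb41l1 were most like Clec10a, Hibadh (0.98), Pdia4 and Cd200r1 most like Mrc1, and Ppp1r14b (0.97), Qdpr and Rsl1d1 most like Mgl2. The best match of Chil3, Ereg, reached only 0.83, followed by Trf and Dap. With 1 in place of 10 added to the CPM, the gene most alike was Cd209g for Cd163, Ccl8 for Folr2 and Dap for Chil3, and the same as above for the other 4.

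Near relatives of the secreted proteins gave few UMIs in the class. Chil4, whose transcript is 94.2% identical to Chil3, had 12 and 7 UMIs, and Retnlg, 83.2% identical to Retnla and a neutrophil gene, had 82 and 124. Retnlb had 2 and 0 and Folr1 6 and 2. The last 300 bases of Chil3 and Chil4 are 89.4% identical, so how their reads are divided depends on the counting.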

How the data were processed

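The files deposited by the authors hold whole-number UMI counts with no normalization. Cell Ranger 7.1.0 and GRCm39 are named in the submitters' processing notes. The libraries were made with the 10x Genomics 3′ workflow, per the labels' protocols, but the barcodes have a form that Cell Ranger does not write, so the counting step is uncertain. No source used here names the annotation release. Ctrl held 34310 barcodes and 211047063 UMIs, BiDT 34996 and 130313537.

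Cells with at least 300 genes, 500 UMIs and a mitochondrial share of up to 10% were kept, and 2058 Ctrl and 2808 BiDT cells with a Scrublet score of 0.15 or more were removed, since the caller's own thresholds marked 2 and 0 cells and had not worked. Cells were clustered with scanpy 1.11.5 and igraph 0.11.9 under Python 3.11.15 (3000 variable genes, 30 components, 15 neighbours, Leiden resolution 1). The first 4 gates began at the smallest count, at least 2 UMIs of 1000, that at most 15% of the class reached (13 for Arg1 and hypoxia), C1q-high at the median of 1, and Ly6c2 monocytes at 2. UMIs were summed per subset and library, scaled to CPM and compared as log2 ratios with exact conditional binomial intervals. A gene was called at 1.5-fold with at least 50 UMIs over both libraries. Shares have exact binomial intervals. PCR copies are removed by UMIs, and intervals cover counting error only.

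The log2 ratios, their intervals and the TMM scaling were tested on simulated counts, which did not gather UMIs in few cells. The other steps were not simulated. The named genes are the 7 markers, listed genes past 2-fold and 9 fixed receptors and factors (Il4ra, Il13ra1, Il10ra, Stat6, Pparg, Klf4, Irf4, Maf, Nr3c1), and the 3 genes most like each marker. The markers, lists and gates were chosen with earlier results of these data known. Cluster 17, picked by its Retnla level, and the 7 clusters of at least 200 cells per library were taken up after seeing the clusters. Clec7a and Ear11, both listed, were not found by symbol. Of the listed genes past 2-fold, 1 is not reported here.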

Additional observations from a re-analysis of the deposited data

How the results depend on the processing

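No paired analysis was possible because each group is 1 library. Of 222 alternative counts of genes past 1.5-fold, 196 stayed within 1.5 times the reported count. Of 619 alternative log2 ratios, 396 stayed within the counting interval (or within 0.1 where there is none), 222 moved beyond it and 1 reversed. The reversed ratio, of Retnla in the tissue-type gate, was past 1.5-fold on either side, but the reversed value rests on few BiDT UMIs. Among ratios under 1.5-fold, the sign also changed under 3 of 13 settings for Chil3 in cycling cells (up to 0.36). For Mrc1 it changed under 3 of 13 in Arg1 and hypoxia cells, and under 1 of 13 each in the C1q-low remainder and the tissue-type gate. At a 2-fold call, 1 gene was lower in the tissue-type, Arg1 and hypoxia, and Ly6c2 monocyte gates and 0 were higher in Arg1 and hypoxia cells. With TMM scaling 2 genes were lower in cycling cells and 0 higher in Arg1 and hypoxia cells. In cells thinned to 1000 UMIs, 3 were lower in cycling cells, 1 lower in non-classical monocytes, and 0, 2 and 1 higher in the Arg1 and hypoxia, C1q-high and C1q-low gates. As a mean over cells, 3 were lower in cycling cells. The lower count in Ly6c2 monocytes was 1 at doublet scores under 0.10, at Malat1 of at most 1%, and with Ly6c2 and Plac8 left out of that gate. The higher count in the C1q-low remainder was 1 at doublet scores under 0.10, at a mitochondrial share of at most 5% and without cells holding a dendritic gene UMI, where 2 were lower in cycling cells. Chosen after seeing the data were the next 4 settings. Without cluster 17, 2 genes were higher over the class, 2 in the tissue-type gate and 2 in Arg1 and hypoxia cells, 2 were lower in cycling cells, and the Retnla ratio of the tissue-type gate reversed to -1.25, since that cluster held nearly all of its Retnla. Without the 3 cells with most UMIs of each gene, 2 were lower in cycling cells, and 2 and 1 higher in Arg1 and hypoxia cells and the C1q-low remainder. For the other changed values the cause was not tested. Leaving out cluster 0, or barcodes found in both libraries, moved no count by over 1.5 times. Over the whole class the log2 ratio of Mgl2 stayed between -2.29 and -1.84 and that of Chil3 between -1.39 and -1.03, while that of Retnla ran from 0.53 to 2.48.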

Other observations

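The cytokines that induce alternative activation were few in these libraries. Il13 had 788 UMIs in all filtered Ctrl cells and 848 in BiDT, or 4.17 and 7.29 CPM, and 83.5% and 85.6% of them came from T-cell cluster 21, led by Cd163l1, Cxcr6, Cd4 and Rora. Il4 had 281 and 285 UMIs (1.49 and 2.45 CPM), of which 60.9% and 57.2% were in 3 cells. Csf2, which drives monocytes towards inflammatory and alveolar-type macrophages, went from 10.6 to 21.5 CPM, with 42.3% and 42.5% of its UMIs in T cells. Interleukin 33 (Il33) was at 1.19 and 0.817 CPM. The scavenger protein Cd5l, a gene of resident macrophages, had 25 UMIs in the macrophage or monocyte-like class of Ctrl and 267 in that of BiDT, a log2 ratio of 4.59 (3.99 to 5.24).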
